A study of Arabidopsis thaliana with 6 samples.

Results

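The PHT1 phosphate transporters and the PHO1 phosphate exporters of Arabidopsis thaliana were followed in seedlings exposed to nanoparticles of yttrium oxide, an oxide of a rare-earth metal. The genes were taken by identifier: 8 PHT1 genes (PHT1-1, PHT1-2, PHT1-3, PHT1-4, PHT1-5, PHT1-7, PHT1;8 and PHT1-9) and 2 PHO1 genes (PHO1 and PHO1-H1), 10 of the 32948 genes in the expression table. All 10 were present. PHT1 and PHO1 gene names are spelled as in that table, which writes PHT1-1 for the PHT1;1 of the literature. Treated seedlings were wild type and were held on MS medium, a common medium for plant culture, supplemented with the particles at 20 mM. Control seedlings were wild type on MS medium alone. Both groups were sampled at 6 h, with 3 libraries each, and the tissue label reads seedlings, with no organ named. The labels do not say whether the libraries of a group are separate cultures. The p-values below therefore cover the spread among these libraries alone, which may be technical.

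Plants take up inorganic phosphate through PHT1 proteins, proton-coupled carriers in the plasma membrane that also admit arsenate. PHT1-1 and PHT1-4 carry most of the uptake by Arabidopsis roots, and PHO1, a protein with an SPX and an EXS domain, moves phosphate out of the cells around the root xylem so that it can travel to the shoot. When phosphate is short, the transcription factor PHR1 binds a short DNA element called P1BS in many phosphate genes, while PHO2 and NLA mark transporter proteins for breakdown when phosphate is plentiful.

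The PHT1 and PHO1 genes did not move together in treated seedlings. PHT1-1 fell most, PHO1 fell less, and PHT1-7, which had few reads in control libraries, rose. PHT1-3, which had 0 reads in every control library, was detected in every treated library. PHT1-4, PHT1-2, PHT1-5 and PHO1-H1 did not pass the threshold, and in treated seedlings PHT1-4 stood at a level like that of PHT1-1.

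Levels are given in FPKM, fragments scaled to gene length and to a size set for each library, so they can be compared between genes. Library totals recovered from the deposited values lay between 19314683 and 23374306 reads. The size used for scaling was not exactly the total. It was 21790940 against 21790611 reads in treated library 1 and 20115454 against 19635539 reads in control library 1. Each change is the treated minus the control mean of log2(FPKM + 1), fitted with limma over the 18614 genes with a mean of at least 1 FPKM, and a gene passed at a Benjamini-Hochberg adjusted p under 0.05. By this rule 14.5% of the tested genes passed, 8.07% higher and 6.41% lower in treated seedlings. Of the 10 genes, 7 were tested, of which 1 was higher, 2 were lower and 4 did not pass. With edgeR on recovered read counts the members also numbered 1 higher and 2 lower, against 8.7% and 7.11% of the same genes. Without the filter limma called 2 members higher and 2 lower, against 5.44% and 5.59% of 25437 genes, and edgeR called 2 higher and 2 lower, against 7.4% and 6.81%. DESeq2 on the same reads called 2 members higher and 2 lower with the filter, against 11.1% and 8.37% of genes. Without it DESeq2 called 3 higher and 2 lower, against 9.6% and 7.97%, or 17.6% in either direction. At an unadjusted limma p under 0.05, 16.1% of the tested genes were higher and 13.7% lower, the shares against which the unadjusted counts below are read. PHT1-7 reached the mean of 1 FPKM only through its treated libraries, and PHT1-3, PHT1;8 and PHT1-9 stayed under it.

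P1BS matches were looked for upstream of each gene, because the element links these genes to the phosphate shortage response. The motif was spelled GNATATNC, which reads the same on both strands, and was searched in the 1000 bases before each annotated gene start. It was found for 6 of the 10 genes (PHT1-1, PHT1-2, PHT1-3, PHT1-5, PHT1-7 and PHT1;8), against 20.3% of 27419 protein-coding genes. PHT1-1, PHT1-2 and PHT1-7 held 2 matches each, against 2.78% of protein-coding genes with 2 or more. The stretches around the matches of the 3 tandem genes and of PHT1-5 and PHT1-7 are shown 5′ to 3′ on the strand of the gene, from RefSeq TAIR10.1, with each P1BS match in capitals. The match of PHT1;8 lies inside a neighbouring gene and is not shown.
PHT1-1, chr5:17402899-17402964, minus strand: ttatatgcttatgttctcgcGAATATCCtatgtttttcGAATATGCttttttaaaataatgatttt
PHT1-2, chr5:17415109-17415156, plus strand: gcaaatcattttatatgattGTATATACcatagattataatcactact
PHT1-2, chr5:17415636-17415683, plus strand: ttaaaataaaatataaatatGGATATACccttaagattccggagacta
PHT1-3, chr5:17409111-17409158, plus strand: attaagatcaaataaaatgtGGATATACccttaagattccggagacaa
PHT1-5, chr2:13930211-13930258, minus strand: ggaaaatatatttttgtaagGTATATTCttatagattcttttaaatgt
PHT1-7, chr3:20251243-20251290, minus strand: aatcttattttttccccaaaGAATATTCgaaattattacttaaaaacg
PHT1-7, chr3:20251045-20251092, minus strand: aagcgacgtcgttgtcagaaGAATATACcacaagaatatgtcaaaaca

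The nearest matches to an annotated start were those of PHT1-2, at -42 to -35, and PHT1-7, at -124 to -117. Those of PHT1-1 lay farther off, at -786 to -779 and at -768 to -761. The second window of PHT1-2 and the window of PHT1-3 share a run of 27 identical bases that contains the element. PHT1-3 is annotated from its start codon onward, so its match, at -393 to -386, is counted from a different kind of start. A match is a description of the letters and says nothing about binding: PHT1-1, with 2 matches, fell, and PHT1-7, also with 2, rose. PHT1-4, PHT1-9, PHO1 and PHO1-H1 had no match in these 1000 bases. The window of PHT1-4 ends in gaatata, which fits GNATATNC up to its last letter. A match that crosses a gene start was not searched for. The core of the W-box (TTGAC, both strands), the element bound by WRKY factors, was present upstream of all 10 genes, but 88.1% of protein-coding genes hold it in a window of that length. Upstream of the 10 genes, 0 P1BS matches shared a base with a W-box core.

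**Figure D1:**
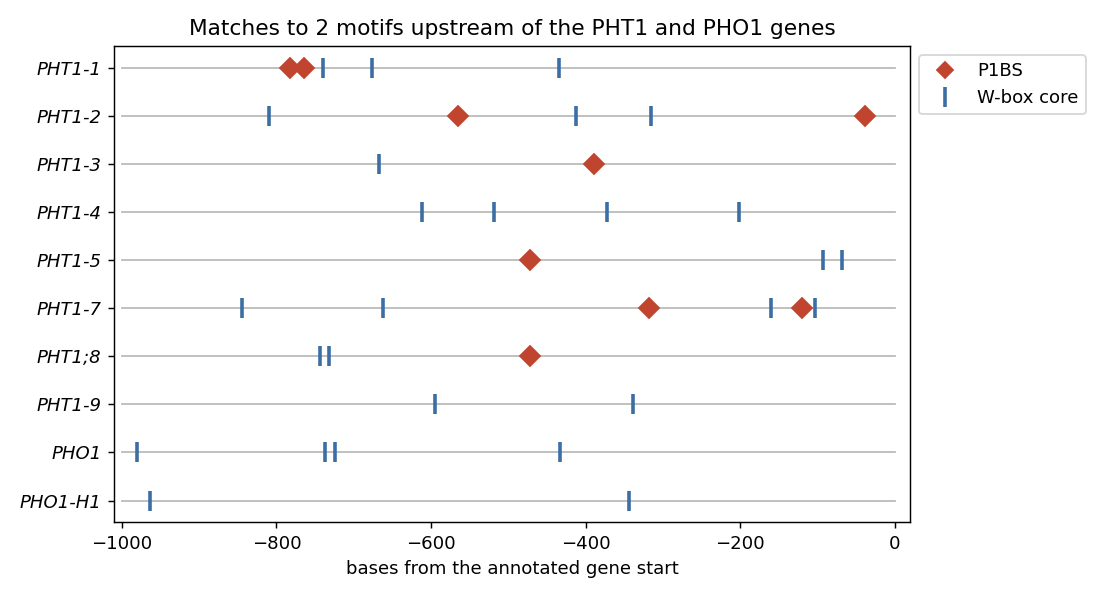
Positions of P1BS matches (red diamonds) and W-box cores (blue bars) in the 1000 bases upstream of the 8 PHT1 and 2 PHO1 genes; the x axis gives bases from the annotated gene start. P1BS matches occur for 6 of the 10 genes, and PHT1-2 and PHT1-7 have one within 250 bases of the start.

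PHT1-1 (AT5G43350, chromosome 5, 17399769 to 17402158, minus strand, TAIR10) was the most abundant of these transcripts in control seedlings. Its level was 25.5, 34.7 and 38.3 FPKM in treated libraries 1, 2 and 3, against 158, 183 and 182 FPKM in control libraries 1, 2 and 3. All treated libraries were below all control libraries, and the gap between the groups was several times the spread within either. The mean was 32.8 ± 6.64 FPKM in treated and 174 ± 14.0 FPKM in control seedlings (SD, n = 3 each), and the mean control level was 5.30 times the treated one. On the log2 scale PHT1-1 fell by 2.39 (SE 0.158, limma adjusted p = 4.47e-05), and leaving out any single library kept the call, with adjusted p up to 0.000652. Among all genes in the table it ranked 3762 by mean level in treated and 543 in control seedlings. The authors' deposited table gives PHT1-1 a log2 fold of -2.41 (adjusted p = 2.64e-42).

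Root tissue markers fell alongside PHT1-1. Of 12 markers, mostly of endodermis and root hairs, 9 were tested, 8 were lower and 0 higher, with a median log2 change of -1.78, against 0.00 over all genes tested. At an unadjusted p under 0.05 none of the 9 was higher, and edgeR and DESeq2 also called 0 higher and 8 lower. Of these markers 7 reached the mean of 1 FPKM only through the control libraries, and without the filter limma and edgeR each called 9 of 12 lower and 0 higher. Summed over the 12 markers the level was 454 to 519.95 FPKM in treated and 1981 to 2482 FPKM in control libraries. Without BGLU23, an abundant beta-glucosidase of roots, the sum was 1.78 to 3.36 FPKM in treated and 29.1 to 31.5 FPKM in control libraries. CASP1, a scaffold protein of the Casparian strip, fell by 3.16 (limma adjusted p = 4.80e-05 without the filter) and BGLU23 fell by 2.15 (limma adjusted p = 2.04e-05), whereas MYB36, a regulator of the endodermis, had a log2 change of -0.52 (limma adjusted p = 0.170). CASP5, another protein of the Casparian strip, had 0 reads in every treated library. Of 9 shoot markers limma, edgeR and DESeq2 each called 0, none had an unadjusted p under 0.05, and LHCB1.3, a light-harvesting protein, had a log2 change of 0.27. In such bulk samples, fewer cells of a type and less RNA per cell cannot be told apart. The part of the root signal in the fall of PHT1-1 was not tested.

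PHT1-2 and PHT1-3 are the close copies of PHT1-1 and lie beside it. Together with PHT1-6, which had 0 reads in all 6 libraries, they form a cluster on chromosome 5 from 17393598 to 17417972. The coding sequence of PHT1-2 (AT5G43370, 17415698 to 17417972, plus strand) is 97.7% identical to that of PHT1-1, and that of PHT1-3 (AT5G43360, 17409524 to 17411214, plus strand) is 90.04% identical. The first 90 coding bases show how little separates the copies. Letters that differ from PHT1-1 are in capitals, and the sequences are read from RefSeq TAIR10.1.
PHT1-1, chr5:17401554-17401643, minus strand: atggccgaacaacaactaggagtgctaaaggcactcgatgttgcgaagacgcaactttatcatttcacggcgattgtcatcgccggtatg
PHT1-2, chr5:17416074-17416163, plus strand: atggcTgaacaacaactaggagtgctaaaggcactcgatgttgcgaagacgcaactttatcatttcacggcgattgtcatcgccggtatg
PHT1-3, chr5:17409524-17409613, plus strand: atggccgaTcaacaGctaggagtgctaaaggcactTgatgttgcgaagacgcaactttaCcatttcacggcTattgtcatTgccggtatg

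In these 90 bases PHT1-2 differs from PHT1-1 at 1 position and PHT1-3 at 6. Over the joined exons of the longest transcript of each gene, 32.9% of the 100-base stretches of PHT1-2 also occur in PHT1-1. Of its 150-base stretches, 25.0% do. For PHT1-3 no stretch of 100 bases is shared with another of these genes. How reads with several possible origins were counted is not given in the sources used here, so the split between PHT1-1 and PHT1-2 is uncertain.

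PHT1-2 had 1.15, 1.71 and 0.904 FPKM in treated libraries 1, 2 and 3, against 1.62, 2.48 and 2.39 FPKM in control libraries 1, 2 and 3. The groups overlapped, because treated library 2 lay above control library 1. Its log2 change of -0.49 (SE 0.186, 95% interval -0.92 to -0.07) missed the threshold (limma adjusted p = 0.117) but passed it without treated library 2 (limma adjusted p = 0.0488). Relative to PHT1-1, its level was 3.93 ± 1.38% in treated and 1.23 ± 0.180% in control seedlings (SD, n = 3 each). When the reads of PHT1-1, PHT1-2 and PHT1-3 were summed into a single feature, that feature fell by 2.34 (SE 0.153, limma adjusted p = 4.23e-05).

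PHT1-3, known as a root-expressed copy, had 21, 9 and 11 reads in treated libraries 1, 2 and 3, against 0, 0 and 0 reads in the controls. These counts correspond to 0.615, 0.262 and 0.360 FPKM in the treated libraries, and every treated value was above the limit that a count of 0 allows for this gene, 0.0824 to 0.0983 FPKM per library. Against a limit of 3 reads over the whole control group, the treated reads of PHT1-3 gave a lower bound of 13.7-fold. That bound covers counting error in the controls only, and the 41 treated reads were taken as exact. It was under the mean of 1 FPKM, so it was tested only without that filter, where 5.44% of 25437 genes were higher. There PHT1-3 rose (limma adjusted p = 0.0209), and edgeR on recovered reads, also without a filter, gave an adjusted p of 0.00263. The authors' deposited table lists PHT1-3 as higher with an adjusted p of 0.000288. The number of reads is small, and the size of the change is uncertain.

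PHT1-4 (AT2G38940, chromosome 2, 16257157 to 16260253, plus strand) is the other main uptake carrier and is expressed in roots and shoots. It had 38.3, 47.0 and 27.7 FPKM in treated libraries 1, 2 and 3, against 26.0, 33.4 and 27.8 FPKM in control libraries 1, 2 and 3. Treated library 3 fell among the controls, so the groups overlapped. Its log2 change was 0.34 (SE 0.192, 95% interval -0.10 to 0.78, limma adjusted p = 0.281), so neither a rise nor a fall was called. In treated libraries 1 and 2 PHT1-4 stood above PHT1-1, in treated library 3 below it. The ratio of PHT1-1 to PHT1-4 was 0.930 ± 0.397 in treated and 6.03 ± 0.539 in control seedlings (SD, n = 3 each).

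The make-up of the PHT1 transcripts also differed between the groups. Summed over the 8 PHT1 genes, the level was 72.4, 94.3 and 71.5 FPKM in treated libraries 1, 2 and 3, against 187, 220.6 and 213 FPKM in control libraries 1, 2 and 3. PHT1-1 made up 41.9 ± 10.2% of the sum in treated and 84.1 ± 1.16% in control seedlings. PHT1-4 made up 47.1 ± 7.49% in treated and 14.0 ± 1.08% in control seedlings. Without PHT1-1, the other 7 genes summed to 33.2 to 59.7 FPKM in treated and 29.4 to 37.9 FPKM in control libraries, ranges that overlap. No test was made on these sums.

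**Figure D2:**
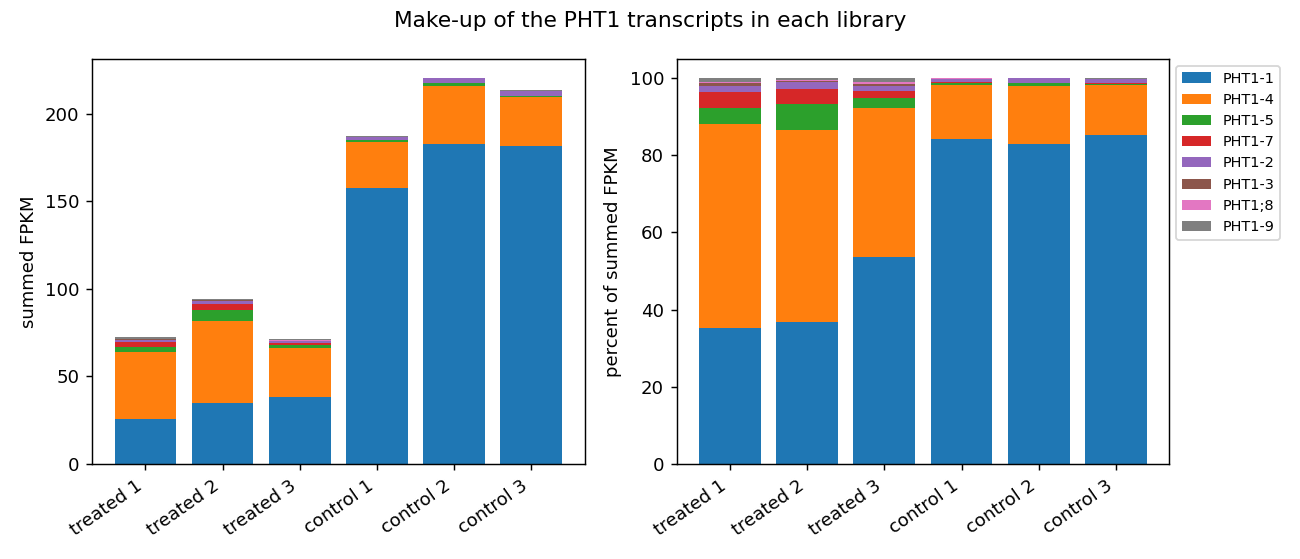
Summed FPKM of the 8 PHT1 genes in each library (left) and the share of each gene in that sum (right); each bar is a library and colours stand for genes. PHT1-1 takes 35.2% to 53.6% of the sum in treated libraries and 82.8% to 85.1% in control libraries.

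PHT1-7 (AT3G54700, chromosome 3, 20248214 to 20250948, minus strand), a family member known mainly from floral tissue, went against PHT1-1. It had 3.05, 3.65 and 1.28 FPKM in treated libraries 1, 2 and 3, against 0.248, 0.0498 and 0.193 FPKM in control libraries 1, 2 and 3. In reads these are 133, 160 and 50 in the treated libraries and 10, 2 and 9 in the controls. The lowest treated library was above every control library. The mean was 2.66 ± 1.23 FPKM in treated and 0.164 ± 0.102 FPKM in control seedlings (SD, n = 3 each), a ratio of 16.2. With 1 added to each FPKM, a step that shrinks the change of a gene this low, PHT1-7 rose on the log2 scale by 1.59 (limma adjusted p = 0.0106 without the filter, 0.00545 with it). Without the filter, edgeR on recovered reads gave a log2 change of 3.99 (adjusted p = 0.000425). The authors' deposited table lists PHT1-7 with a log2 change of 4.02.

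PHT1-5 (AT2G32830, chromosome 2, 13927606 to 13929763, minus strand) moves phosphate between source and sink organs, including out of ageing leaves. Its level was 2.88, 6.37 and 1.83 FPKM in treated libraries 1, 2 and 3, against 1.16, 1.61 and 0.845 FPKM in control libraries 1, 2 and 3. The groups did not overlap, but treated library 3 lay close to control library 2 and treated library 2 far above the rest. The log2 change of 0.98 (SE 0.336, 95% interval 0.20 to 1.77) missed the threshold (limma adjusted p = 0.0959), as it did by edgeR (adjusted p = 0.0568). Without treated library 3 it did pass (limma adjusted p = 0.0365), and DESeq2 on recovered reads passed it as well (adjusted p = 0.00185). The authors' deposited table lists PHT1-5 at a log2 fold of 1.62 (adjusted p = 0.00180).

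PHT1;8 and PHT1-9 are known from roots short of phosphate, where they help to move it toward the shoot. PHT1-9 (AT1G76430, chromosome 1, 28678935 to 28682062, minus strand) had 0.700, 0.580 and 0.861 FPKM in treated libraries 1, 2 and 3, against 0.329, 0.177 and 0.415 FPKM in control libraries 1, 2 and 3. Its groups did not overlap, yet without the filter its change of 0.39 on the log2 scale missed the threshold (limma adjusted p = 0.0641, edgeR adjusted p = 0.0821). PHT1;8 (AT1G20860, chromosome 1, 7253998 to 7258952, minus strand) had 9, 5 and 10 reads in treated and 4, 7 and 8 reads in control libraries, overlapping counts from which no change could be detected at this depth (limma adjusted p = 0.678 without the filter). Their coding sequences are 79.0% identical, and they share no stretch of 50 bases.

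**Figure D3:**
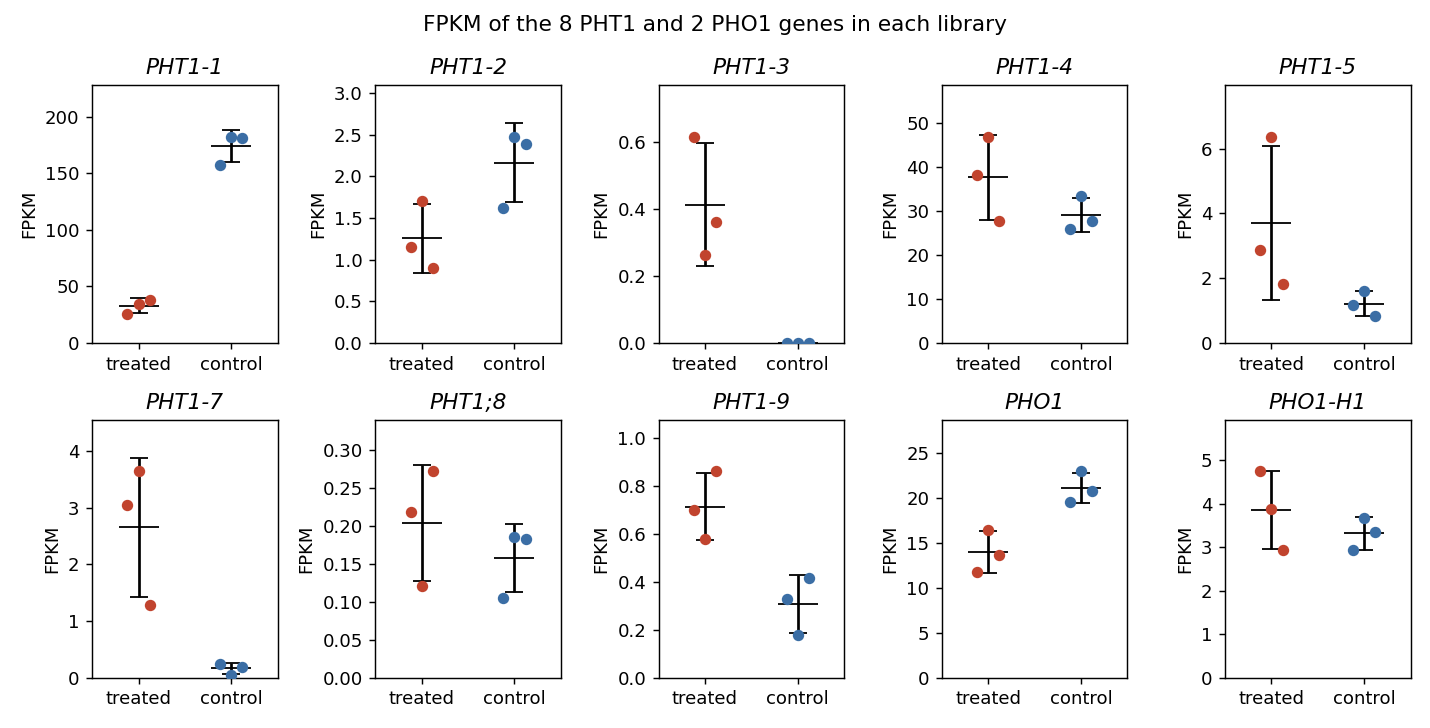
FPKM of each of the 10 genes in 3 treated (red) and 3 control (blue) libraries; points are libraries, the horizontal bar is the mean, the error bar is 1 SD, and each panel has its own axis starting at 0. PHT1-1 and PHO1 are lower in every treated library. PHT1-3, PHT1-5, PHT1-7 and PHT1-9 are higher in every treated library, though PHT1-5 and PHT1-9 missed the limma threshold. PHT1-2, PHT1-4, PHT1;8 and PHO1-H1 overlap.

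PHO1 (AT3G23430, chromosome 3, 8387398 to 8393467, minus strand), the exporter that loads phosphate into the root xylem, fell less than PHT1-1. It had 11.8, 16.4 and 13.6 FPKM in treated libraries 1, 2 and 3, against 19.6, 22.9 and 20.7 FPKM in control libraries 1, 2 and 3. The groups did not overlap. PHO1 fell by 0.57 on the log2 scale (SE 0.136, limma adjusted p = 0.0256), and edgeR gave an adjusted p of 0.0174. The limma call was lost in 5 of 6 cases when a single library was left out, with adjusted p of 0.0655 to 0.10. It was kept without treated library 2 (limma adjusted p = 0.00716). The authors' deposited table, in which every gene has an absolute log2 change above 1, does not list PHO1.

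The log2 level of PHO1 minus that of PHT1-1 was -1.05, -1.04 and -1.43 in treated libraries 1, 2 and 3, against -2.95, -2.94 and -3.07 in control libraries 1, 2 and 3. All treated values were above all control values. The groups differed by 1.82 on this scale, with a 2-sided exact permutation p of 0.10, the smallest that 3 against 3 libraries can give. In FPKM, PHO1 stood at 0.430 ± 0.0649 of the level of PHT1-1 in treated and 0.121 ± 0.00627 in control seedlings (SD, n = 3 each).

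PHO1-H1 (AT1G68740, chromosome 1, 25812449 to 25816983, minus strand) is the relative of PHO1 that can take over its export role. It had 4.75, 3.88 and 2.94 FPKM in treated libraries 1, 2 and 3, against 2.93, 3.67 and 3.36 FPKM in control libraries 1, 2 and 3. The groups overlapped, and the log2 change of 0.16 (SE 0.167, 95% interval -0.23 to 0.54) did not pass (limma adjusted p = 0.574). PHO1 stood at 3.78 ± 1.14 times PHO1-H1 in treated and 6.36 ± 0.275 times in control seedlings. The coding sequences of PHO1 and PHO1-H1 are 63.6% identical, and they share no stretch of 50 bases.

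**Figure D4:**
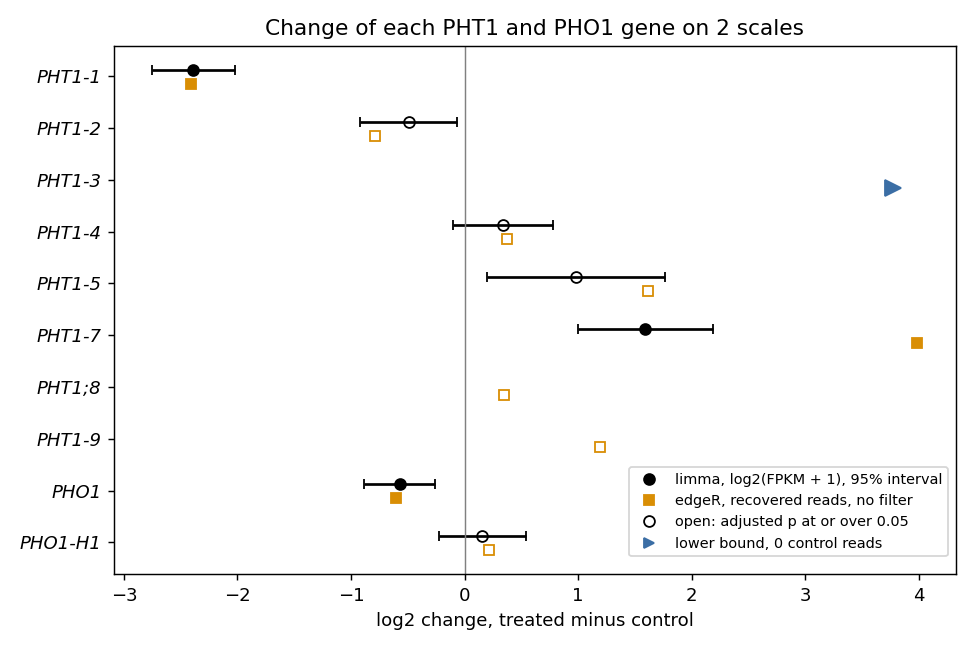
Log2 change (treated minus control) of each gene by limma on log2(FPKM + 1), with 95% intervals (circles, 7 tested genes), and by edgeR on recovered reads without a filter (squares); filled symbols passed the threshold, and the triangle for PHT1-3 is the lower bound set by 0 control reads. PHT1-1 and PHO1 lie below 0 on both scales, and PHT1-7 lies above 0, at 1.59 by limma and farther out by edgeR.

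In treated seedlings the order of the levels was PHT1-4, PHT1-1, PHO1, PHO1-H1, PHT1-5, PHT1-7, PHT1-2, PHT1-9, PHT1-3 and PHT1;8. Neighbours overlapped between libraries except for PHT1-1 and PHO1, PHO1 and PHO1-H1, and PHT1-2 and PHT1-9. In control seedlings it was PHT1-1, PHT1-4, PHO1, PHO1-H1, PHT1-2, PHT1-5, PHT1-9, PHT1-7, PHT1;8 and PHT1-3. There PHT1-9, PHT1-7 and PHT1;8 overlapped, PHT1-2 and PHT1-5 nearly touched, at 1.62 and 1.61 FPKM, and the other neighbours were apart. Of the 7 tested genes 4 had groups that did not overlap, against 35.6% of all genes tested.

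Most markers of phosphate shortage went the other way from PHT1-1. Of 16 such genes, all tested, 12 were higher and 0 lower, with a median log2 change of 1.56. At an unadjusted p under 0.05 there was 1 lower, and edgeR and DESeq2 called 0 lower. That gene was NPC4, with a log2 change of -0.42 (limma adjusted p = 0.132). SPX3 and PEPC1 reached the mean of 1 FPKM only through the treated libraries, and without the filter limma and edgeR each called 11 of the 16 higher and 0 lower. SPX3, a sensor protein of phosphate status, had 20.6 ± 6.56 FPKM in treated and 0.498 ± 0.0157 FPKM in control seedlings (SD, n = 3 each), a log2 rise of 3.80 (limma adjusted p = 0.000152 without the filter). The non-coding RNA AT4, which sequesters the microRNA that limits PHO2, rose by 1.64 (limma adjusted p = 3.85e-05). PAP17, a secreted acid phosphatase, had 59.8 ± 26.0 FPKM in treated and 27.9 ± 7.43 FPKM in control seedlings (SD, n = 3 each) and did not pass (limma adjusted p = 0.0862). P1BS was found in the 1000 bases upstream of 12 of these 16 genes.

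Among 17 regulators of PHT1 and PHO1, 15 were tested, 3 were higher and 0 lower, with a median log2 change of 0.19. With the filter, edgeR called 3 higher, DESeq2 5 and an unadjusted limma p under 0.05 counted 5, each with 0 lower. Without the filter limma called 2 higher and 1 lower of 17, and edgeR 5 higher and 0 lower. The gene called lower was WRKY42, with 0.388 ± 0.0229 FPKM in treated and 0.790 ± 0.110 FPKM in control seedlings (limma adjusted p = 0.0451). It thus moved in the same direction as PHT1-1 and PHO1. WRKY75, an activator of phosphate uptake genes, had 11.2 ± 4.81 FPKM in treated and 3.23 ± 0.185 FPKM in control seedlings, a log2 rise of 1.45 (limma adjusted p = 0.00723). WRKY45, an activator of PHT1-1, rose by 1.40 (limma adjusted p = 0.0169), and the zinc finger gene ZAT6 by 0.75 (limma adjusted p = 0.0498, and 0.0703 without the filter). WRKY6, a repressor of PHO1, had 27.4 ± 6.50 FPKM in treated and 18.7 ± 2.24 FPKM in control seedlings and did not pass (limma adjusted p = 0.0811). PHR1 had a log2 change of 0.07, PHF1, which helps PHT1 proteins leave the endoplasmic reticulum, of 0.01, PHO2 of 0.18 and NLA of 0.22, with limma adjusted p from 0.362 to 0.989.

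With the filter, the other phosphate carriers did not pass in limma. Among the other members of both families, PHT1-6 and 9 more PHO1 homologues, limma tested 6 of 10 and called 0, with 3 higher and 0 lower at an unadjusted p under 0.05. The median log2 change of the 6 was 0.43. For these 6, edgeR called 1 and DESeq2 2 higher, and without the filter limma called 0 of 8 and edgeR 2 higher. PHO1-H8 was at 22.2 ± 5.54 FPKM in treated and 13.9 ± 1.73 FPKM in control seedlings (limma adjusted p = 0.0672). Of 15 carriers of plastids, mitochondria, Golgi and vacuole 13 were tested and limma, edgeR and DESeq2 each called 0, with 0 higher and 2 lower at an unadjusted p under 0.05 and a median log2 change of 0.02. Without the filter limma and edgeR each called 1 of the 15 lower, VPE2. PHT5;1, which stores phosphate in the vacuole, had 25.2 ± 1.39 FPKM in treated and 25.6 ± 0.670 FPKM in control seedlings (SD, n = 3 each).

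Most root uptake carriers for other nutrients also fell. Of 12 such genes 8 were tested, 7 were lower and 0 higher, with a median log2 change of -1.95. At an unadjusted p under 0.05 the count was also 7 lower and 0 higher, as it was by edgeR and DESeq2. IRT1, an iron carrier among the 7, passed the filter only through the control libraries. Without the filter limma called 8 of 11 lower and edgeR 7, with 0 higher. The ammonium carrier AMT1-3 fell by 4.27 (limma adjusted p = 2.20e-05) and the sulfate carrier SULTR1;2 fell by 2.82 (limma adjusted p = 2.98e-05). COPT2, a copper carrier, had a log2 change of -0.26 and did not pass (limma adjusted p = 0.580). Beside PHO1, genes that load other ions into the root xylem were tested for 4 of 6, and 1 was lower. That was the nitrate carrier NRT1.5, which fell by 1.101 (limma adjusted p = 0.00801), while the boron exporter BOR1 had a log2 change of -0.09 (limma adjusted p = 0.776). None of the 4 was higher at an unadjusted p under 0.05, or by edgeR or DESeq2, and their median log2 change was -0.10. Without the filter limma called 3 of 6 lower, NRT1.5, SKOR and HKT1, and edgeR 2.

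**Figure D5:**
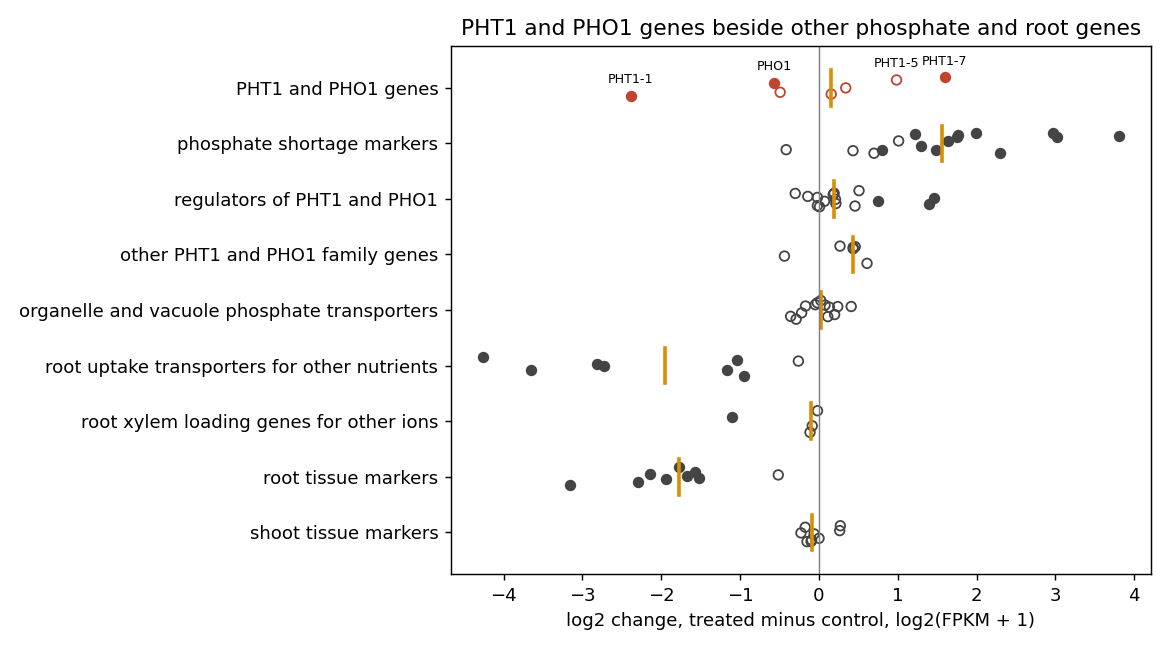
Log2 change (treated minus control, log2(FPKM + 1)) of the tested PHT1 and PHO1 genes (red) and of 8 lists of other genes (grey); each point is a gene, filled points passed the threshold, orange bars are list medians, and the vertical spread within a row has no meaning. PHT1-1 lies at -2.39, among the root uptake carriers and root tissue markers, and PHO1 at -0.57, nearer to 0.

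The genes whose profiles over the 6 libraries were most like those of the main members were found by the Euclidean distance between profiles of log2(FPKM + 1), each centred on its own mean. For PHT1-1 they were NPF2.5, a member of the nitrate and peptide transporter family (0.21), AT2G44380 (0.27) and the aquaporin gene TIP4-1 (0.33). For PHO1 they included the polyamine oxidase gene PAO5 (0.12) and CDKD1;1 (0.13). PHT1-4 had PGL2 (0.14), TGA3 (0.18) and NF-YA7 (0.19), PHT1-2 had AT3G04275 (0.12), AT1G68390 (0.14) and MS2 (0.16), and PHO1-H1 had BPC5 (0.09), AT3G17225 (0.15) and PATL4 (0.15).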

How the data were processed

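RNA from wild-type seedlings was sequenced in 3 treated and 3 control libraries. Per the submitters' processing notes, HISAT2 2.0.5 and TAIR10 were used. How reads were counted, and whether by strand, is not stated in any source used here. The authors deposited FPKM values for 32948 genes, and a comparison table of 2104 genes with signal (read counts divided by a size factor), log2 fold changes and p-values. Multiplied by gene length, 100% of the FPKM values were whole multiples (within 0.01) of a single step per library, which gave back the read counts. On these, edgeR 4.0.16 (TMM, quasi-likelihood) called 2943 genes and DESeq2 1.42.0 gave a further alternative. The main test was limma 3.58.1 in R 4.3.3, 2-sided, on log2(FPKM + 1), with trended and robust variance and no covariate. The limma, edgeR and DESeq2 fits were each run on simulated counts with known changes, and the other steps were not. Limits for a count of 0 are 3 reads and cover counting error only. Libraries of a group differed by a chi-square of 12.3 to 34.9 per degree of freedom, so none repeated another. On the first principal component treated library 2 (25.1) lay nearer to the controls than treated libraries 1 and 3 (48.2 and 40.7). Of the gene identifiers, 32548 matched RefSeq TAIR10.1, 99.95% with the same start and end, so its sequence was read with the files' coordinates. Stretches shared between genes were counted on the RefSeq transcript of each gene with the most exon bases.

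The members and lists were chosen with earlier results of these data known. All 10 members are described; from each list the 2 genes past the threshold with the lowest adjusted p in each direction and 1 that did not pass are named, and 3 nearest profiles for 5 members, of which 1 is not reported here. ZAT6, PHR1, PHF1, PHO2, NLA, CASP5, PEPC1, IRT1, WRKY42, VPE2, SKOR, HKT1 and NPC4 were named in addition, after their values were seen. Alternatives were other pseudocounts, filters, scalings, tools, a replicate block, each library left out, and the 3 tandem genes summed. Tests without a filter by edgeR and DESeq2, and the counts of each list without a filter, were added after seeing the data.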

Additional observations from a re-analysis of the deposited data

How the results depend on the processing

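PHT1-1 and PHT1-7 kept their direction and call under every alternative that tested them as single genes. With PHT1-1, PHT1-2 and PHT1-3 summed, the feature changed by -2.34, opposite in sign to PHT1-3 alone, since PHT1-1 holds most of its reads. Members called higher numbered 1 in the main test, 2 by DESeq2, 2 with no filter, 0 with a mean FPKM of at least 5 (PHT1-7 is then not tested), 2 by edgeR and 3 by DESeq2 on reads without a filter; the last called 5 in either direction, against 17.6% of genes (9.6% higher). Genes called lower numbered 1194 in the main test, 676 with a mean of at least 5 FPKM and 1830 by DESeq2 without a filter. Leaving out each library gave 1393 to 3417 genes called (697 to 1950 higher, 696 to 1467 lower) and 2 to 4 members (1 to 2 higher, 1 to 3 lower). Calls dropped by over 1.5 times without control libraries 1 and 2 (1393 and 1580 genes), and those higher also without treated library 1 (914). The difference between PHO1 and PHT1-1 was 1.75 to 1.94. Median centring moved no call among the members. The replicate numbers mark no pairing in the labels, and same-numbered libraries correlated at 0.09, 0.38 and 0.10 in their deviations, with treated library 1 closest to control library 3. With the replicate number as a block, 3256 genes and 2 members higher were called, the added member being PHT1-5 (adjusted p = 0.0228), and 2 regulators higher in place of 3. Depth limits PHT1-3, PHT1;8 and PHT1-9, which rest on 0 to 33 reads per library.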

Other observations

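The treated library with the highest level differed between the genes. PHT1-2, PHT1-4, PHT1-5, PHT1-7 and PHO1 were highest in treated library 2, PHT1-1, PHT1;8 and PHT1-9 in treated library 3, and PHT1-3 and PHO1-H1 in treated library 1. Among the treated libraries, PHT1-2, PHT1-4, PHT1-5, PHT1-7 and PHO1-H1 were all lowest in library 3. Replicates have no order, and no test was made of this pattern.

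Beside the PHT1 and PHO1 genes, P1BS lay within 1000 bases upstream in 6 of 17 regulators and 3 of 15 organelle and vacuole carriers. It was found in 3 of 12 root uptake carriers for other nutrients and 3 of 10 other PHT1 and PHO1 family genes. It was also found in 2 of 6 root xylem ion carriers, 2 of 9 shoot markers and 1 of 12 root tissue markers. The share of all protein-coding genes was 20.3%. Within 250 bases it was found in 2 of the 10 PHT1 and PHO1 genes and 7 of 16 phosphate shortage markers. In that window it was found in 2 of 12 root uptake carriers, 1 of 17 regulators and 1 of 15 organelle and vacuole carriers. It was found in 0 of the other family genes, root xylem ion carriers, root markers and shoot markers. The share of all protein-coding genes was 5.45%.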
